A study of Mus musculus with 24 samples.

Results

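The comparison described here sets the RLT Vav Txp libraries, in which MLL::ENL had been induced in the embryo, against wild-type libraries of the same age, across every expressed gene. It uses 8 of the 24 RNA-seq libraries of the series, 4 in each group, chosen by their titles and not by any measured value. All 8 were made from LSK cells, the lineage-negative, Sca-1-positive, KIT-positive fraction of mouse marrow that holds the blood-forming stem cells and their earliest progeny, although the design text speaks of lineage-negative KIT-positive progenitors. The RLT Vav Txp mice were at postnatal day 28 (P28), carried a human MLL::ENL (ME) transgene under Tet-off control, and had it induced at E10.5, before birth. The labels add the words RLT, Vav and Txp to these titles and do not expand them, so what sets the group apart from the other ME groups is given here only by that name. The wild-type (WT) mice were also P28, without induced ME. Another group, P28 mice with E10.5-induced ME and no RLT Vav Txp in the title, is given beside them where it helps. Counts of the human transgene itself were not analysed here. RLT Vav Txp libraries 1 and 2 carry titles that share the number 378. The labels do not say which libraries come from separate mice, so p-values measure only the spread between these samples.

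MLL::ENL joins a DNA-binding portion of the histone methyltransferase MLL to ENL, a subunit of transcription elongation complexes, and is known from acute leukaemias of infants and children, where it holds genes such as the Hoxa cluster and Meis1 in an active state. LSK cells hold few or no mature cells when they are cleanly sorted. Marrow macrophages, by contrast, clear dying cells and the nuclei that erythroblasts expel, break down haem and export its iron, are a main source of the complement component C1q, and present antigen on MHC class II.

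The 4 RLT Vav Txp libraries held 73483146, 72352938, 42572871 and 56275820 counts, and the WT libraries 33200936, 31233688, 75945220 and 61046200. The biological coefficient of variation, edgeR's measure of spread between replicates, was 73.2% in RLT Vav Txp, 72.2% in WT and 33.4% in E10.5-induced ME. It is a single value per group over all genes tested, those of low counts included. Over 10287 genes of higher level, Pearson correlations were 0.954 to 0.973 between WT libraries. Between RLT Vav Txp libraries they were lower or alike, at 0.904 to 0.970. In a principal component analysis of the 12 libraries of these groups over 10287 genes, RLT Vav Txp library 1 had a score of -0.26 on the leading component (51.6% of the variance), while the other 3 lay between -49.95 and -32.8. The WT libraries lay between -21.4 and 4.63 there, a range that held RLT Vav Txp library 1, and E10.5-induced ME between 32.3 and 46.8. On the next component (21.9%) all 4 RLT Vav Txp libraries had positive scores and all 4 WT libraries negative ones. Library 1 had a Pearson correlation of 0.938, 0.925 and 0.904 with RLT Vav Txp libraries 2, 3 and 4. Its correlation was 0.906 to 0.924 with the E10.5-induced ME libraries and 0.872 to 0.915 with WT. The female-specific RNA Xist was at 28.4, 58.9, 45.3 and 3.41 CPM (counts scaled by TMM to a common library size) in the RLT Vav Txp libraries and at 0, 2.52, 66.4 and 0.216 CPM in WT. Summed counts of 4 Y-linked genes stood at 178 CPM in RLT Vav Txp library 4, at 223 to 252 CPM in WT libraries 1, 2 and 4, and at or under 1.10 CPM in the other 4. Sex was therefore unequal between the groups, and a fit with a term for it called 929 genes, of which 806 were among the 950 called without that term. Kit, the sorting receptor, stood at 895, 870.4, 619 and 834 CPM in RLT Vav Txp and 726, 585, 689.7 and 748 CPM in WT, with a log2 fold change of 0.23 (edgeR, SE 0.39, adjusted p = 0.88). Ly6a, the gene for Sca-1, was lower in every RLT Vav Txp library (179 to 218 CPM) than in any WT library (267 to 337 CPM), without passing the test (log2 fold change -0.61, edgeR adjusted p = 0.106). In 6 of 19 alternative fits Ly6a was called lower, and its log2 fold change ranged from -0.79 to -0.54 over the 19.

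Of 23059 genes tested, 950 passed at a Benjamini-Hochberg adjusted p under 0.05. Higher in RLT Vav Txp were 608 genes (2.64% of those tested) and lower were 342 (1.48%). The rises were the larger changes, with a median log2 fold change of 2.71 and 282 genes up at least 8-fold, while the falls had a median of -1.27 and 57 genes down at least 8-fold. Groups did not overlap in 873 of the 950 genes, and in 11.5% of all genes tested. The median log2 fold change over all genes was 0.01. With plain library totals in place of TMM, the median over all genes was -0.095, 1004 genes were called and 52.99% of them were higher, in place of 64.0%. A fit of the 16 P28 libraries alone called 2233 genes and DESeq2 called 1644. The 4 RLT Vav Txp libraries did not contribute alike. Library 2 was the lowest of the 4 in 304 of the 608 risen genes and library 1 the highest in 237. Among the 342 fallen genes, library 1 was the highest, and so the nearest to WT, in 177.

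**Figure D1:**
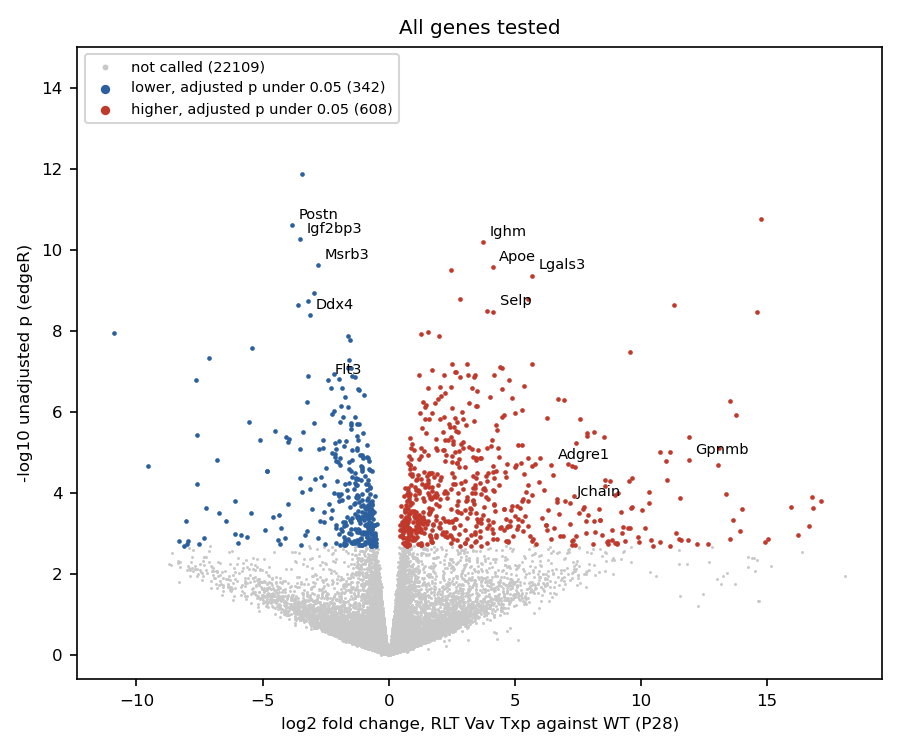
Each point is 1 of 23059 genes, with the log2 fold change of RLT Vav Txp against WT on the x axis and -log10 of the unadjusted edgeR p on the y axis. The 608 genes called higher are red, the 342 called lower are blue, and the red points reach farther from 0 than the blue ones.

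Macrophage genes rose together. Of 20 macrophage genes on the list, 17 rose and none fell, and the list's median log2 fold change was 3.44 against 0.01 over all genes. List counts here and below stand beside 2.64% of all genes called higher and 1.48% called lower. Genes at or near 0 in WT, such as Vsig4 and Marco, could pass the count filter through other libraries and then hardly be called lower. Of the genes called, 78 had no more than 3 counts in any WT library and 21 in any RLT Vav Txp library. The balance of rises and falls in such lists is thus partly set by the filter and is no test of direction. Summed over the list, the RLT Vav Txp libraries held 6031, 1846, 6933 and 4822 CPM and the WT libraries 615 to 774 CPM. In bulk RNA, more cells of a type and more RNA of that type per cell cannot be told apart. Under 19 alternatives, including the removal of each library in turn, the count of 17 ranged from 12 to 18. It was 12 without WT library 1 or 4, 13 with limma quality weights and 18 with DESeq2.

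Adgre1 (ENSMUSG00000004730, chromosome 17, 57358691 to 57483527 on GRCm38) encodes the macrophage surface protein F4/80. It stood at 182, 29.5, 136 and 119 CPM in the 4 RLT Vav Txp libraries and at 2.60, 0.123, 1.12 and 1.47 CPM in WT. The groups lay far apart, with library 2 the lowest of the RLT Vav Txp libraries, and the contrast gave a log2 fold change of 6.45 (edgeR, SE 1.14, adjusted p = 0.00204). Csf1r, the receptor for the macrophage growth factor CSF1, was at 342, 62.9, 241 and 188 CPM against 8.80 to 15.3 CPM in WT and gave a log2 fold change of 4.02 (edgeR, SE 0.55, adjusted p = 0.000143). Mrc1, the mannose receptor CD206, was at 136, 37.1, 115 and 101 CPM against 0.862 to 4.78 CPM and gave a log2 fold change of 5.27 (edgeR, SE 0.77, adjusted p = 0.000235). Both repeated the same order, with library 1 the highest and library 2 the lowest. Vcam1, an adhesion molecule that resident marrow macrophages carry, rose by 4.61 (edgeR adjusted p = 0.00267), and Aif1, the actin-bundling protein IBA1, by 4.51 (edgeR adjusted p = 0.000102). Lyz2, the lysozyme gene, was already at 490.0 to 616 CPM in WT and reached 3606, 1216, 5118 and 3174 CPM, a smaller log2 change of 2.51 (edgeR adjusted p = 0.0187). Without 1 library, the edgeR call ended for Lyz2 (without any WT library or RLT Vav Txp library 3, adjusted p up to 0.0749). Limma with quality weights did not call Adgre1 (adjusted p = 0.265).

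The transcription factors Maf, Spic and Nr1h3, all on the macrophage list, were among the 17 that rose. Maf, which restrains self-renewal in mature macrophages, rose by 3.37 on the log2 scale (edgeR adjusted p = 6.58e-05). Spic, needed for the iron-recycling macrophages of spleen and marrow, was at 68.1, 30.7, 59.2 and 59.3 CPM against 7.82 to 12.2 CPM in WT, with a log2 fold change of 2.51 (edgeR, SE 0.48, adjusted p = 0.00179). Nr1h3, the sterol receptor LXR-alpha, rose by 3.19 (edgeR adjusted p = 0.00106). The engulfment receptors Mertk and Axl, which bind dying cells through bridging ligands, rose by 4.37 and 2.96 (edgeR adjusted p = 0.00456 and 0.00534). Cd163, Timd4 and Cd5l did not pass. Cd163, the haemoglobin scavenger receptor, was nevertheless higher in each RLT Vav Txp library (21.8 to 32.3 CPM) than in any WT library (7.77 to 14.3 CPM), with an edgeR adjusted p of 0.203. Marco, a scavenger receptor of marginal-zone and alveolar macrophages, was called (edgeR adjusted p = 0.0466) but carried by 1 library, at 87.5, 0.509, 7.31 and 0 CPM. Vsig4, the complement receptor of resident macrophages, was at 0.175, 3.30, 4.27 and 4.46 CPM with 0 counts in every WT library, at least 54.2-fold higher against a floor of 3 counts in a library of mean size. Of the 20 genes, Marco alone was at 0 in a RLT Vav Txp library, library 4. The part of macrophage RNA in the complement, receptor, lysosome, iron, lipid and class II results that follow was not tested. The edgeR call was lost without 1 library for Marco (without any WT library or RLT Vav Txp library 1 or 3, adjusted p up to 0.169) and Vsig4 (without any WT library or RLT Vav Txp library 2, 3 or 4, adjusted p up to 0.127). With limma quality weights, no call was made for Marco (adjusted p = 0.726) and Vsig4 (adjusted p = 0.268), and edgeR fitted to only the 2 groups did not call Marco (adjusted p = 0.194).

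**Figure D2:**
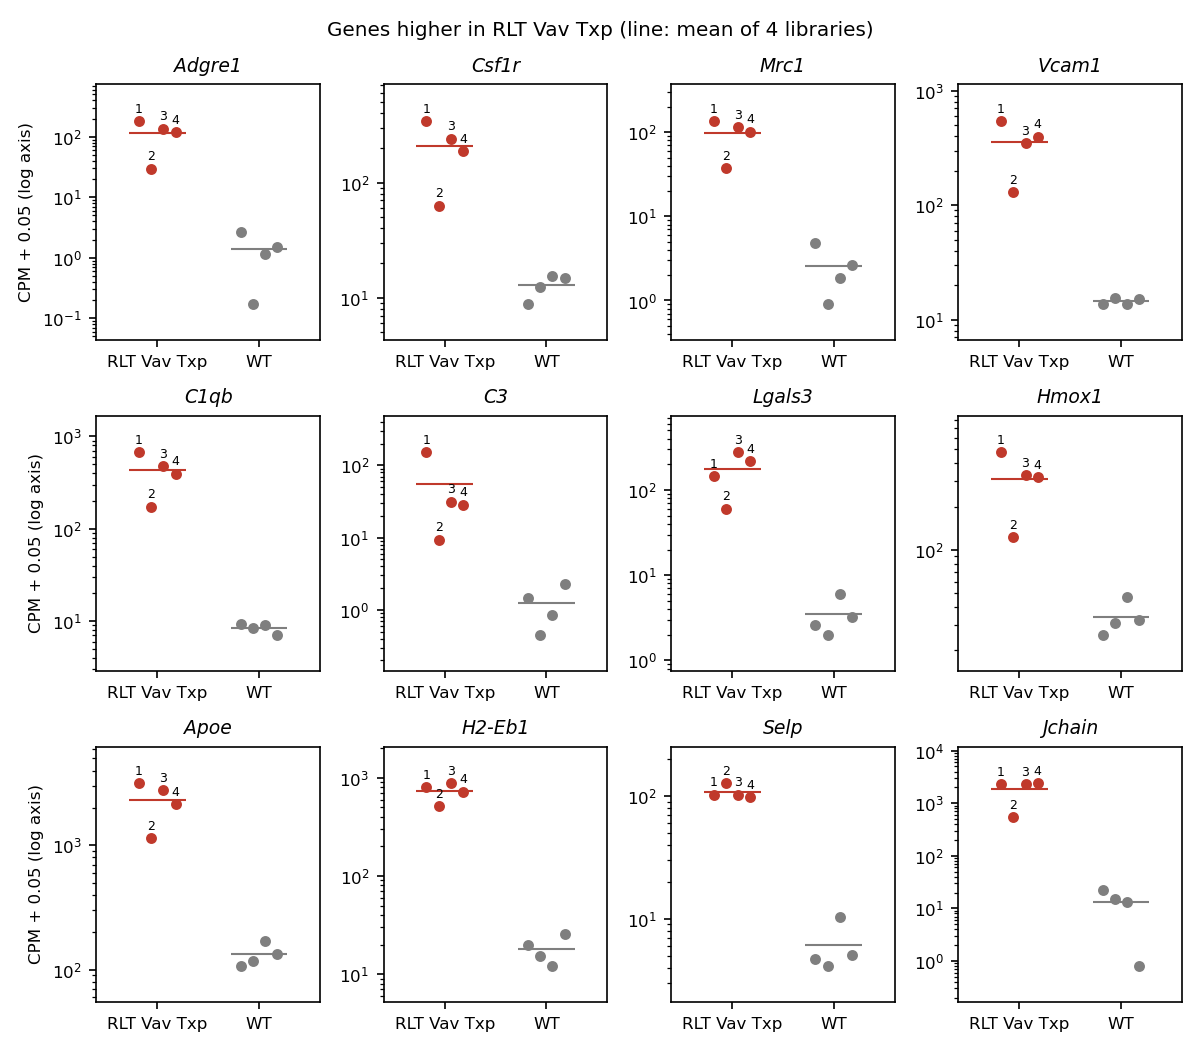
CPM on a log axis, with 0.05 added so that 0 can be drawn, for 12 genes that rose, 1 point per library. RLT Vav Txp libraries are numbered 1 to 4, and in most panels library 2 is the lowest of the red points while all of them lie above the WT points.

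Complement genes followed. Of 14 tested, 10 rose and none fell, where 2.64% of all genes were called higher and 1.48% lower. Their median log2 fold change was 4.70. The subunits of C1q, which tags dying cells and immune complexes, are encoded by 3 adjacent genes within 18.7 kb of chromosome 4 (136880129 to 136898803 on GRCm38). C1qa was at 477, 105, 287 and 253 CPM against 4.83 to 11.3 in WT, C1qb at 677, 174, 477 and 394 against 7.06 to 9.22, and C1qc at 511, 115, 367 and 274 against 3.51 to 11.5. The 3 genes kept the same order of libraries, 1 above 3 above 4 above 2, and their log2 fold changes were 5.37, 5.68 and 5.52 (edgeR adjusted p = 0.00292, 0.00213 and 0.00457). C3, the central component that is cut on activation, reached 153, 9.32, 31.5 and 28.5 CPM against 0.400 to 2.21 CPM, so that library 1 stood well above the other 3, with a log2 fold change of 5.50 (edgeR, SE 1.16, adjusted p = 0.00846). Cfp, for properdin, rose by 2.16 (edgeR adjusted p = 0.000583). The anaphylatoxin receptors C5ar1 and C3ar1 rose by 5.99 and 4.74 (edgeR adjusted p = 0.00152 and 0.0228). Itgam, for the complement receptor subunit CD11b that is also a myeloid lineage marker, was at 11.5, 9.85, 12.6 and 10.6 CPM against 7.93 to 10.2 CPM, overlapping groups (edgeR adjusted p = 0.765). Fits that left out 1 library ended the edgeR call of C3ar1 (without WT library 2 or 4 or RLT Vav Txp library 3, adjusted p up to 0.0889). No limma call with quality weights was made for C1qc (adjusted p = 0.0643), C3 (adjusted p = 0.429) and C5ar1 (adjusted p = 0.227), and edgeR fitted to only the 2 groups did not call C3ar1 (adjusted p = 0.0786).

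Receptors for particles, sugars and antibodies moved in the same direction, 12 of 18 rising and none falling. Lgals3, galectin-3, was at 145, 60.5, 279 and 220.0 CPM against 1.94 to 5.96 CPM and gave a log2 fold change of 5.68 (edgeR, SE 0.54, adjusted p = 1.13e-06). Here library 3 was the highest, unlike for C1q. Clec7a, the beta-glucan receptor dectin-1, was at 55.3, 27.1, 144 and 71.2 CPM against 0 to 0.804 CPM, and Trem2, a lipid-sensing receptor, at 24.2, 10.3, 40.2 and 43.7 CPM against 0.0279 to 0.232 CPM (edgeR adjusted p = 0.000158 and 0.000602). The adaptors Fcer1g and Tyrobp, through which many of these receptors signal, rose by 2.48 and 1.88 (edgeR adjusted p = 9.92e-05 and 0.00106). Among antibody receptors, Fcgr3 rose by 4.30 and the inhibitory Fcgr2b by 2.92 (edgeR adjusted p = 0.000541 and 0.000267). Cybb, the catalytic subunit of the phagocyte oxidase, was at 126, 43.4, 119.7 and 96.0 CPM against 1.15 to 5.14 CPM and gave a log2 fold change of 5.24 (edgeR, SE 0.92, adjusted p = 0.00189). Plbd1, a phospholipase B-like protein of myeloid granules, gave a log2 fold change of 5.52 (edgeR, SE 0.57, adjusted p = 3.22e-06). Limma with quality weights did not call Cybb (adjusted p = 0.107).

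Lysosomal genes, many of which are expressed in all cells, rose by less. Of 20 tested, 12 rose and none fell, where 2.64% of all genes were called higher and 1.48% lower. Their median log2 fold change was 0.99. Ctsb, the protease cathepsin B, went from 367 to 438 CPM in WT to 2411, 818, 2453 and 1734 CPM, with a log2 fold change of 2.21 (edgeR, SE 0.37, adjusted p = 0.000792). Library 2 was the nearest to WT and libraries 1 and 3 the farthest. Psap, the precursor of the saposins, showed the same spread at 2242, 765, 2158 and 1497 CPM against 526 to 642 CPM (log2 fold change 1.48, edgeR adjusted p = 0.00446). Ctsd rose by 1.54, Lgmn, the protease legumain, by 3.61, and the membrane protein Lamp1 by 0.99 (edgeR adjusted p = 9.93e-05, 0.00153 and 0.00113). Gpnmb, a glycoprotein of lipid-laden macrophages, was at 48.4, 9.40, 172 and 82.4 CPM while no WT library held more than 3 counts of it (edgeR adjusted p = 0.00168). With limma quality weights, no call was made for Gpnmb (adjusted p = 0.193).

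Genes of haem and iron handling rose in 6 of 10 cases and fell in none. Hmox1, haem oxygenase 1, opens the haem ring and frees its iron. It was at 479, 122, 329 and 322 CPM against 25.5 to 46.6 CPM and gave a log2 fold change of 3.21 (edgeR, SE 0.71, adjusted p = 0.0116). Slc40a1, ferroportin, exports that iron from the cell and was at 609, 143, 509.6 and 436 CPM against 21.4 to 31.9 CPM, with a log2 fold change of 3.91 (edgeR, SE 0.75, adjusted p = 0.00388). Both were lowest in library 2 and still stood above every WT library there. Slc48a1, the haem transporter of the phagolysosome, rose by 0.75, Ftl1, ferritin light chain, by 1.46, and Slc11a1, the phagosomal metal pump NRAMP1, by 5.70 (edgeR adjusted p = 0.00522, 0.000594 and 0.00677). Removing a single library ended the edgeR call of Hmox1 (without WT library 1 or 2, adjusted p up to 0.0541). No limma call with quality weights was made for Slc11a1 (adjusted p = 0.18).

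Lipid genes rose in 5 of 11 cases and fell in 1, where 2.64% of all genes were called higher and 1.48% lower. Apoe, the lipid carrier, was at 3171, 1144, 2790.0 and 2149 CPM against 107 to 171 CPM and gave a log2 fold change of 4.13 (edgeR, SE 0.39, adjusted p = 8.87e-07). Lpl, lipoprotein lipase, was at 136, 37.8, 159 and 148 CPM against 1.91 to 4.94 CPM (log2 fold change 5.12, edgeR adjusted p = 0.000941). Pparg and Fabp5, a fatty acid receptor and a fatty acid carrier, rose by 2.41 and 1.81 (edgeR adjusted p = 0.0192 and 0.00335). Mylip, which degrades the LDL receptor, fell by 0.74 on the log2 scale (edgeR adjusted p = 0.00659). The count of 5 was 3 without WT library 1 and 3 without WT library 4. Without 1 library, the edgeR call ended for Pparg (without any WT library or RLT Vav Txp library 1 or 3, adjusted p up to 0.0847).

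Of 10 MHC class II genes tested, 6 rose, H2-Ob fell and 3 did not pass, and the median log2 fold change was 2.21. H2-Eb1 (ENSMUSG00000060586, chromosome 17, 34305867 to 34316674 on GRCm38) encodes a chain that presents peptide to helper T cells. It was at 799, 516, 884 and 725 CPM in RLT Vav Txp and 20.0, 15.2, 12.1 and 25.5 CPM in WT, and gave a log2 fold change of 5.33 (edgeR, SE 1.12, adjusted p = 0.00805). H2-Aa was at 758, 534, 908 and 685 CPM against 20.1 to 39.9 CPM and H2-Ab1 at 1176, 765, 1334 and 1090.3 CPM against 41.3 to 70.6 CPM. The 4 RLT Vav Txp libraries differed from each other by less than for C1q, and again library 2 was the lowest. Cd74, the invariant chain that guards the peptide groove, was at 2796, 1512, 3178 and 2727 CPM against 122 to 150.1 CPM and gave a log2 fold change of 4.25 (edgeR, SE 0.64, adjusted p = 0.000416). Ciita, the co-activator that class II promoters need, rose by 2.85 (edgeR adjusted p = 0.014), and H2-DMb1, a chain of the peptide exchanger, by 1.56 (edgeR adjusted p = 1.24e-05). H2-Ob, a chain of the inhibitor of that exchanger, went the other way, at 60.5, 42.2, 29.3 and 44.9 CPM against 136, 109, 113 and 138 CPM with a log2 fold change of -1.49 (edgeR, SE 0.20, adjusted p = 5.35e-05). None of 14 class I genes passed in edgeR over the 24 libraries (3 had an unadjusted p under 0.05), and their summed level was 13413, 12605, 11887 and 11875 CPM against 9343 to 10892 CPM. DESeq2 called 0 of them and limma 4, and edgeR called 2 in the 2 groups and 5 in the 16 P28 libraries. The edgeR call was lost without 1 library for Ciita (without WT library 1, adjusted p = 0.058) and H2-Aa (without WT library 3, adjusted p = 0.0509).

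The promoters of these genes are shown because members that rose and the one that fell can be compared in letters. The stretches are 100 bases long and lie before the RefSeq start on GRCm38.p6, read 5′ to 3′ on the gene's strand. Counted from the start, they run from -112 to -13 in H2-Eb1, from -100 to -1 in H2-Aa and from -108 to -9 in H2-Ob. Capitals mark ATTGG, the core of the Y box bound by NF-Y, on either strand (CCAAT is its complement), and AGCAAC, the core of the X box bound by RFX.
H2-Eb1: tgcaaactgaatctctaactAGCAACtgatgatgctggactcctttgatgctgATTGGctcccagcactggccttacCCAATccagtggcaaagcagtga
H2-Aa: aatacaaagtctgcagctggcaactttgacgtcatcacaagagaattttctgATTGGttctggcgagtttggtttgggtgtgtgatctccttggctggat
H2-Ob: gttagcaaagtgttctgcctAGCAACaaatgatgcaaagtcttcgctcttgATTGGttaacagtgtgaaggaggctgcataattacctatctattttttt
The H2-Eb1 stretch is chr17:34305755-34305854 on the + strand, the H2-Aa stretch chr17:34287824-34287923 on the - strand, and the H2-Ob stretch chr17:34238797-34238896 on the + strand. On the gene's strand, ATTGG begins at -59 in H2-Eb1, -48 in H2-Aa and -57 in H2-Ob. In the 250 bases upstream of the start, all 7 class II promoters matched in the RefSeq table held ATTGG on either strand, against 33.9% of 32851 promoters. AGCAAC was held by 3 of the 7, H2-Eb1 and H2-Ob among them, against 12.2%. H2-Eb1, which rose, and H2-Ob, which fell, hold the same pair of cores in the same order. A match is a description of letters and not of a bound site.

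Cells that share these genes were examined next. Among 12 dendritic cell genes, Cd83 and Irf4 rose (log2 fold changes 3.46 and 3.26, edgeR adjusted p = 0.00153 and 0.0117) while Flt3 and Ccr7 fell. The median log2 fold change of this list was 2.88, with 9 of the 12 above 0. Called rises numbered 7 with limma quality weights in place of 2, and called falls were 1 whenever 1 library was left out, except for RLT Vav Txp library 1. Of 13 monocyte genes, 5 rose and none fell. Ccr2, the receptor that brings monocytes out of marrow, was at 15.7, 23.7, 22.1 and 45.4 CPM against 1.54 to 5.09 CPM and gave a log2 fold change of 3.41 (edgeR, SE 0.47, adjusted p = 6.42e-05). Here library 4 was the highest. Cx3cr1, the fractalkine receptor, F13a1, a clotting factor of monocytes, Cd14, a co-receptor for endotoxin, and Irf8, a factor that drives monocyte and dendritic fate, rose by 5.38, 4.11, 3.88 and 1.94 (edgeR adjusted p = 9.9e-05, 0.00213, 0.0456 and 0.000158). Fits that left out 1 library ended the edgeR call of Ccr7 (without any WT library or RLT Vav Txp library 2, 3 or 4, adjusted p up to 0.134) and Cd14 (without any WT library or RLT Vav Txp library 1, 3 or 4, adjusted p up to 0.137). Limma with quality weights did not call Cd14 (adjusted p = 0.4) or F13a1 (adjusted p = 0.264), and edgeR fitted to only the 2 groups did not call Ccr7 (adjusted p = 0.072).

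None of 15 neutrophil genes passed in edgeR over the 24 libraries, although the list's median log2 fold change was 2.61. An unadjusted p under 0.05 was reached by 12, all higher. DESeq2 called 6 and limma 0, while edgeR called 9 when fitted to the 2 groups and 8 with the 16 P28 libraries. Their sum was 2960.5, 2399.5, 2221 and 7153 CPM in RLT Vav Txp against 726 to 969.9 CPM in WT, so every library was above WT and library 4 stood apart. Elane, neutrophil elastase, was at 425, 565, 393 and 1685 CPM against 49.5 to 76.3 CPM and S100a8, a calcium-binding protein of mature neutrophils, at 83.9, 115, 328 and 777 CPM against 21.7 to 107 CPM (edgeR adjusted p = 0.15 and 0.299). The eosinophil list showed the same library 4, with sums of 437, 567, 493 and 1738 CPM against 93.4 to 198 CPM and 0 of 8 genes called by edgeR over the 24 libraries. Of these 8, 3 had an unadjusted p under 0.05, DESeq2 called 2 and limma 0, and edgeR called 3 in the 2 groups and 2 in the 16 P28 libraries. The general myeloid factors Spi1 and Cebpa, which encode PU.1 and C/EBP-alpha, did not pass, at 222, 134, 161 and 160.4 CPM against 186, 183, 243 and 215 CPM and at 28.9, 9.28, 13.8 and 22.5 CPM against 21.0, 9.08, 15.4 and 16.2 CPM (edgeR adjusted p = 0.448 and 0.804). Of 12 such factors, Id2, an inhibitor of basic helix-loop-helix factors, rose by 1.67, and Gfi1, a repressor needed for stem cells and neutrophils, fell by 1.47 on the log2 scale (edgeR adjusted p = 0.00777 and 6.42e-05).

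Calls among chemokines and cytokines went both ways. Of 16 tested, 4 rose and 2 fell, while 14 had a log2 fold change above 0 and the list's median was 2.25. Ccl6 was at 80.1, 38.7, 235 and 181 CPM against 4.80 to 12.7 CPM and Cxcl16, a membrane-bound chemokine and scavenger receptor, at 39.1, 10.4, 29.0 and 28.6 CPM against 0.0623 to 0.985 CPM (edgeR adjusted p = 0.000792 and 4.89e-05). Ccl3 and Ccl4, a neighbouring pair that attracts monocytes and T cells, were lower, at 8.32, 5.44, 3.23 and 7.28 CPM against 20.9, 25.8, 17.5 and 17.6 CPM and at 8.09, 14.6, 16.2 and 9.81 CPM against 33.5, 37.5, 37.6 and 25.6 CPM (edgeR adjusted p = 0.0193 and 0.00113). Ccl2 and Cxcl10 also passed, with RLT Vav Txp levels of no more than 1.59 and 18.0 CPM. Without WT library 3, and likewise without WT library 4, 2 chemokine rises were called, and 1 fall was called without WT library 2, RLT Vav Txp library 2 or RLT Vav Txp library 3. Removing a single library ended the edgeR call of Ccl2 (without WT library 3 or 4, adjusted p up to 0.0594), Ccl3 (without WT library 2 or RLT Vav Txp library 2 or 3, adjusted p up to 0.0867) and Cxcl10 (without WT library 1, 3 or 4 or RLT Vav Txp library 1, 3 or 4, adjusted p up to 0.16). With limma quality weights, no call was made for Cxcl10 (adjusted p = 0.127).

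**Figure D3:**
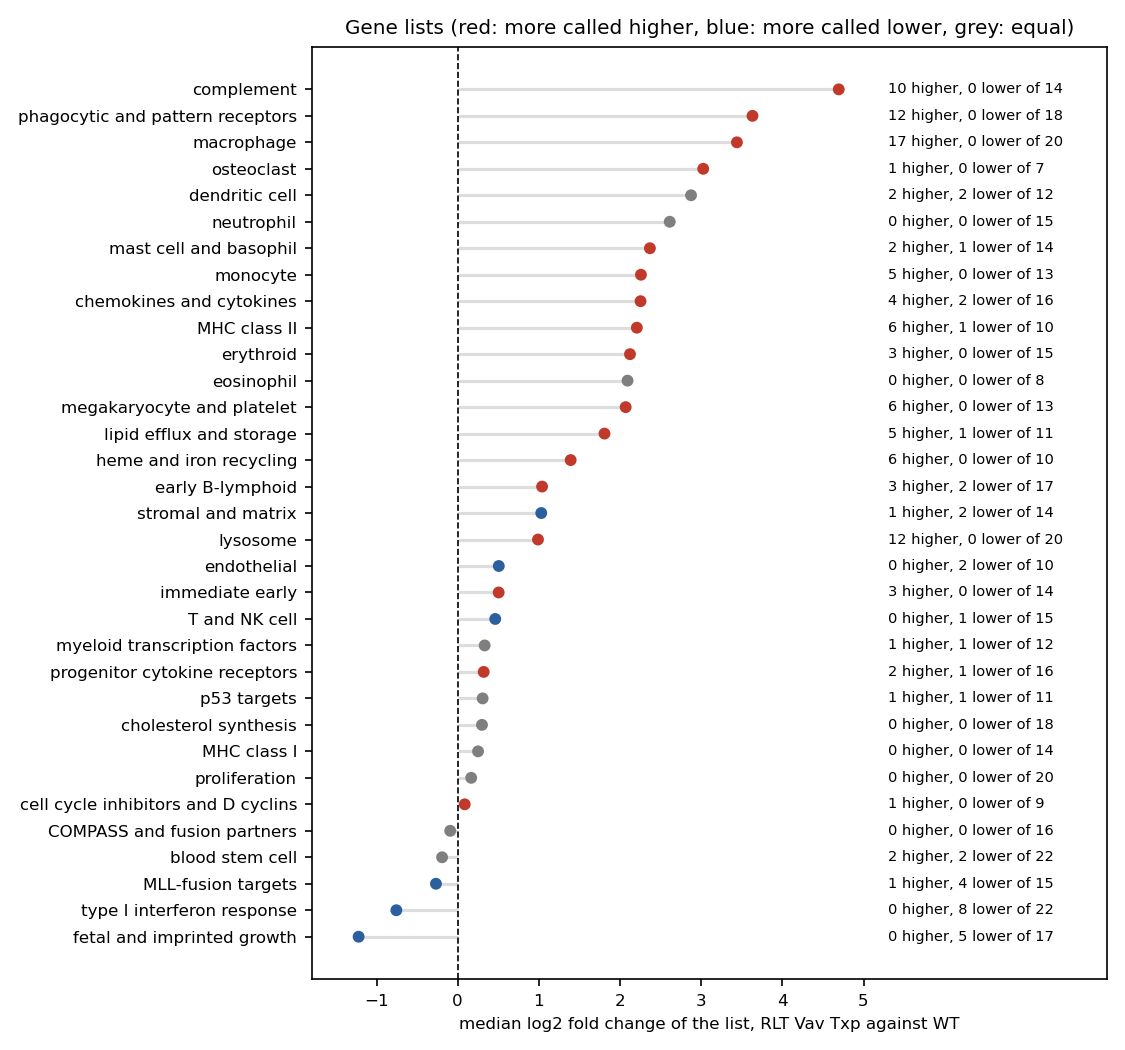
Median log2 fold change of RLT Vav Txp against WT for 33 gene lists, with the number of genes called higher and lower of those tested printed beside each. The dashed line is the median of all 23059 genes, 0.01. The macrophage, complement and phagocytic receptor lists lie farthest to the right among the lists in which most genes were called.

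Of 22 type I interferon response genes tested, 8 fell and none rose, and the median log2 fold change was -0.76. Oas2, a sensor that makes the second messenger for RNase L, was at 4.00, 6.14, 6.78 and 4.60 CPM in RLT Vav Txp and 18.9, 17.5, 23.2 and 21.0 CPM in WT, with a log2 fold change of -1.91 (edgeR, SE 0.29, adjusted p = 0.0002). Irf7, the factor that amplifies interferon production, was at 44.3, 42.9, 36.8 and 27.0 CPM against 59.2, 62.0, 114 and 67.4 CPM (edgeR adjusted p = 0.0313). Neither gene's groups overlapped. Ifi44, Rtp4, Ifit1, Oasl2, Xaf1 and Oas1a fell by 0.75 to 1.28 on the log2 scale. Ifi206, a member of the interferon-inducible p200 family that was not on the list, fell by 2.25 on the log2 scale (edgeR adjusted p = 0.00128). The count of 8 was 3 without WT library 3, 4 without RLT Vav Txp library 4 and 5 with limma quality weights. Against E10.5-induced ME, 14 of the 22 were lower (9.38% of all genes were) and none higher (8.49% of all genes), with a median of -1.13. Without 1 library, the edgeR call ended for Irf7 (without WT library 3 or RLT Vav Txp library 2, 3 or 4, adjusted p up to 0.187), Ifit1 (without WT library 1, 2 or 3 or RLT Vav Txp library 1, 2 or 4, adjusted p up to 0.109), Oas1a (without WT library 3 or RLT Vav Txp library 4, adjusted p up to 0.0587), Oasl2 (without WT library 3, adjusted p = 0.0697) and Xaf1 (without WT library 2 or 3 or RLT Vav Txp library 1, 3 or 4, adjusted p up to 0.142). No limma call with quality weights was made for Irf7 (adjusted p = 0.17), Ifit1 (adjusted p = 0.0954), Xaf1 (adjusted p = 0.0503) and Ifi206 (adjusted p = 0.127).

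The promoters of Ifit1 and Oas1a show the interferon response letters of this group, with capitals marking GAAANNGAA on either strand, N being any base.
Ifit1: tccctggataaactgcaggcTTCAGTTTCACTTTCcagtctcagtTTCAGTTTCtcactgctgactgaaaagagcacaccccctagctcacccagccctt
Oas1a: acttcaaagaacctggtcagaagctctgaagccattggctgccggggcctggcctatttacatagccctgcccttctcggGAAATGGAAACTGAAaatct
The Ifit1 stretch is chr19:34640760-34640859 on the + strand, from -129 to -30 of the start, and holds the letters on its complement. The Oas1a stretch is chr5:120907526-120907625 on the - strand, from -100 to -1, and holds them at -20 and -14. Overlapping matches are merged in the capitals. Of 15 promoters of the list matched in the RefSeq table, 9 held GAAANNGAA in the 250 bases upstream, against 7.13% of all promoters. Of the genes that fell, Ifit1 and Oas1a were among the 9, and Irf7, Oasl2, Ifi44 and Xaf1 were matched without it.

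Calls among genes of stem and multipotent cells went in both directions. Of 22 stem cell genes, 2 rose, 2 fell and 18 were not called. Over all genes tested, 2.64% were called higher and 1.48% lower. Flt3, the receptor that marks multipotent progenitors on the way to lymphoid fate, was among the 15 largest falls of the naming rule, which leaves out genes whose log2 CPM averages under 3 or whose groups overlap. It was at 413, 161, 89.7 and 225 CPM in RLT Vav Txp and 1259.6, 1167, 1142 and 1128 CPM in WT, with a log2 fold change of -2.40 (edgeR, SE 0.33, adjusted p = 7.22e-05). The groups were far apart and library 1 was the nearest to WT. Cd34, which is lost on the most quiescent mouse stem cells, was at 720.1, 471, 312 and 573 CPM against 1341, 1211, 1167 and 1227 CPM and gave a log2 fold change of -1.25 (edgeR, SE 0.20, adjusted p = 0.000407). Hlf, a stem cell transcription factor, was at 297, 234, 227 and 258 CPM against 655, 525, 564 and 590.4 CPM and gave a log2 fold change of -1.20 (edgeR, SE 0.17, adjusted p = 0.000101). All 3 genes were lower in each RLT Vav Txp library than in any WT library. Slamf1, the stem cell marker CD150, rose instead, at 17.9, 44.4, 36.2 and 11.9 CPM against 2.77, 4.19, 8.84 and 7.39 CPM with a log2 fold change of 2.25 (edgeR, SE 0.48, adjusted p = 0.00573). Gata2, a factor of stem cells and of megakaryocyte and mast cell precursors, was at 255, 298, 251 and 220.3 CPM against 121, 134, 159 and 157 CPM and gave a log2 fold change of 0.84 (edgeR, SE 0.23, adjusted p = 0.0326). Procr, the stem cell receptor EPCR, was at 63.3, 104, 97.4 and 88.4 CPM against 79.5, 85.5, 87.3 and 92.7 CPM (edgeR adjusted p = 0.965). Aldh1a1, a retinaldehyde dehydrogenase, was among the 15 largest rises by the same rule, at 121, 195, 167 and 90.0 CPM against 2.63, 3.20, 0.0125 and 2.24 CPM with a log2 fold change of 6.17 (edgeR, SE 1.24, adjusted p = 0.00547), and here library 2 was the highest. The edgeR call was lost without 1 library for Gata2 (without any WT library or RLT Vav Txp library 1, 2 or 3, adjusted p up to 0.105).

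Megakaryocyte and platelet genes rose in 6 of 13 cases and fell in none, where 2.64% of all genes were called higher and 1.48% lower. Selp, P-selectin, was at 102, 127, 102 and 98.0 CPM against 4.64, 4.10, 10.3 and 5.07 CPM and gave a log2 fold change of 4.15 (edgeR, SE 0.47, adjusted p = 4.36e-06). Its 4 RLT Vav Txp values were close together, unlike those of the macrophage genes. Pf4, platelet factor 4, was at 93.0, 152, 115 and 240.2 CPM against 12.3 to 20.1 CPM, Vwf, von Willebrand factor, at 27.8, 62.1, 36.1 and 88.2 CPM against 6.56 to 14.4 CPM, and Itga2b, integrin CD41, at 84.0, 71.5, 56.4 and 99.7 CPM against 8.52 to 18.1 CPM (edgeR adjusted p = 0.000178, 0.0193 and 0.000412). Itgb3 and Gp5, subunits of platelet receptors, rose by 2.20 and 2.07 (edgeR adjusted p = 0.00627 and 0.00335). In the erythroid list 3 of 15 rose, Gata1, Epor and Tfrc, with log2 fold changes of 2.75, 2.33 and 1.72 (edgeR adjusted p = 0.00058, 0.00632 and 0.00747). The globin Hba-a1 was at 314, 289, 607 and 425 CPM against 68.4 to 118 CPM without passing (edgeR adjusted p = 0.299). The erythroid count was 6 with DESeq2, 12 when only the 2 groups were fitted and 13 with the 16 P28 libraries. Fits that left out 1 library ended the edgeR call of Vwf (without WT library 1, 2 or 4 or RLT Vav Txp library 4, adjusted p up to 0.0815).

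Mast cell and basophil genes rose in 2 of 14 cases and fell in 1, where 2.64% of all genes were called higher and 1.48% lower. The rises numbered 5 with limma and in the 2 groups alone, and 4 with DESeq2 and in the 16 P28 libraries. Fcer1a, the IgE receptor chain, was at 9.59, 13.4, 3.71 and 17.6 CPM against 0 to 0.232 CPM and Slc18a2, a vesicular monoamine transporter, at 130.1, 224, 189 and 121 CPM against 47.2 to 61.5 CPM (edgeR adjusted p = 0.00718 and 0.00283). Its paralog Slc18a1 went the other way, at 5.05, 0.771, 0.557 and 0.234 CPM against 31.5, 21.2, 25.1 and 24.9 CPM (log2 fold change -3.94, edgeR adjusted p = 0.000759). Il9r, the receptor of a mast cell and T cell growth factor, was at 13.3, 7.75, 23.8 and 6.72 CPM against 0, 2.12, 2.87 and 3.04 CPM and gave a log2 fold change of 2.66 (edgeR, SE 0.65, adjusted p = 0.0175). Removing a single library ended the edgeR call of Il9r (without WT library 2 or RLT Vav Txp library 3, adjusted p up to 0.0757). EdgeR fitted to only the 2 groups did not call Il9r (adjusted p = 0.197).

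The lymphoid lists are given beside the shares over all genes, 2.64% called higher and 1.48% called lower. Lck was the only 1 of 15 T and NK cell genes to pass, and it fell, while the list's median log2 fold change was 0.46. Satb1, a chromatin organiser of lymphoid progenitors, was at 66.3, 17.3, 13.6 and 23.1 CPM against 128, 113, 127 and 133 CPM and gave a log2 fold change of -2.06 (edgeR, SE 0.41, adjusted p = 0.00388). Notch1, the receptor that starts T cell fate, was at 32.3, 15.3, 15.8 and 24.6 CPM against 58.6, 37.1, 51.9 and 71.7 CPM (log2 fold change -1.32, edgeR adjusted p = 0.0147), and Lck, a T cell kinase, at 32.1, 25.5, 15.5 and 14.0 CPM against 54.7, 64.3, 67.9 and 60.6 CPM (log2 fold change -1.51, edgeR adjusted p = 0.000391). In both Satb1 and Notch1, library 1 was the nearest to WT. Dntt, the enzyme that adds bases to antigen receptor joints, split the group, at 310.0, 75.7, 34.1 and 29.2 CPM against 291, 294, 247 and 216 CPM, so that library 1 lay above every WT library and the other 3 below them all (edgeR adjusted p = 0.447). Of 17 early B-lymphoid genes, Satb1 and Notch1 were the 2 that fell and 3 rose, all of which mature B cells also use: the adaptor Blnk and the surface proteins Cd22 and Ms4a1 (edgeR adjusted p = 0.0322, 0.00198 and 0.0252). A single B-lymphoid rise was called in each of the 4 fits without 1 WT library, that of Cd22. Without 1 library, the edgeR call ended for Notch1 (without WT library 4 or RLT Vav Txp library 2 or 3, adjusted p up to 0.0682), Blnk (without any WT library or RLT Vav Txp library 1, 3 or 4, adjusted p up to 0.121) and Ms4a1 (without any WT library, adjusted p up to 0.0869). Limma with quality weights did not call Blnk (adjusted p = 0.13).

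Antibody genes were also higher. They lay outside the rule for naming genes and were chosen after their values were seen. Jchain, which joins the units of IgM and IgA and was named by the rule, was at 2301, 544, 2308 and 2412 CPM against 22.8, 15.0, 13.0 and 0.757 CPM with a log2 fold change of 7.20 (edgeR, SE 1.54, adjusted p = 0.0092). Ighm, the IgM heavy chain that early B progenitors also transcribe, was at 5506, 1094, 2722 and 4772 CPM against 327, 258, 262 and 206 CPM and gave a log2 fold change of 3.74 (edgeR, SE 0.34, adjusted p = 3.07e-07). Igha, the IgA heavy chain, was at 3964, 192, 1328 and 886 CPM and at no more than 0.677 CPM in WT (edgeR adjusted p = 0.00203). Igkc, the kappa light chain, was at 10981, 2060.0, 8089 and 8340.2 CPM against 106, 72.3, 43.3 and 0.0309 CPM and did not pass (edgeR adjusted p = 0.0638). All immunoglobulin segments together made up 2.62%, 0.482%, 1.76% and 2.04% of the RLT Vav Txp libraries and 0.0264% to 0.0579% of the WT libraries. Of 137 segments tested, 48 were called higher and 3 lower, where 2.64% and 1.48% of all genes tested were. Segments with hardly any WT counts could pass the count filter through the RLT Vav Txp libraries alone. The balance of higher and lower segments was therefore partly set by the filter and is no test of direction. The V gene with the most counts differed between libraries. It was Igkv1-110 in library 1 and Igkv12-44 in library 2, with 6.88% and 13.1% of all V counts, Igkv3-4 in library 3 with 19.4%, and Igkv14-126 in library 4 with 24.8%. V genes share long stretches of sequence, so their single values are uncertain. Of the genes of antibody-secreting cells, Sdc1, the surface protein CD138, was lower at 45.2, 11.9, 29.6 and 21.3 CPM against 65.1, 63.2, 68.1 and 53.2 CPM (edgeR adjusted p = 0.0162), and Tnfrsf17, the receptor BCMA, was at 3.88, 0.674, 4.76 and 12.4 CPM against 0 to 0.739 CPM (edgeR adjusted p = 0.133). With all immunoglobulin segments removed before scaling, 887 genes were called in the whole comparison. The edgeR call was lost without 1 library for Sdc1 (without RLT Vav Txp library 2 or 4, adjusted p up to 0.0648). With limma quality weights, no call was made for Igha (adjusted p = 0.151).

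**Figure D4:**
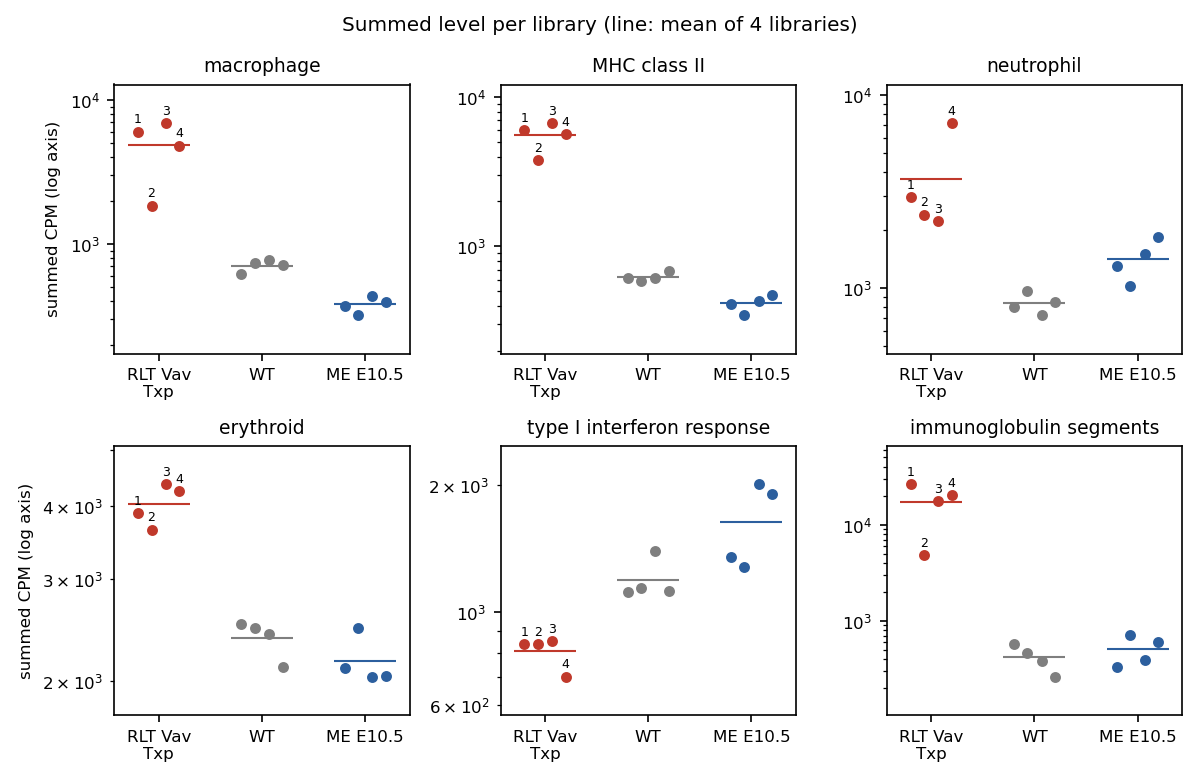
Summed CPM per library on a log axis for 6 sets of genes (the macrophage, MHC class II, neutrophil, erythroid and interferon lists, and all immunoglobulin segments), for RLT Vav Txp, WT and E10.5-induced ME at P28. Every RLT Vav Txp point lies above every WT point except in the interferon panel, where every one lies below, with RLT Vav Txp libraries numbered.

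Targets of MLL fusions were lower or did not pass, with 1 exception. Of 15 tested, 4 fell and 1 rose, where 1.48% of all genes were called lower and 2.64% higher. Their median log2 fold change was -0.27. Hoxa9, the best known of them, was at 87.4, 81.5, 74.3 and 59.6 CPM in RLT Vav Txp and 124, 118, 115 and 134 CPM in WT, with a log2 fold change of -0.70 (edgeR, SE 0.17, adjusted p = 0.016). Hoxa7 was at 27.3, 26.0, 22.6 and 13.3 CPM against 39.1, 33.6, 51.6 and 42.9 CPM and gave a log2 fold change of -0.91 (edgeR, SE 0.21, adjusted p = 0.0111). Both genes were lower in each RLT Vav Txp library than in any WT library. Mef2c and Runx2, other factors of early progenitors, fell by 0.69 and 0.80 on the log2 scale (edgeR adjusted p = 0.0118 and 0.0122). Pbx3, a partner of HOX proteins, rose, at 34.3, 31.9, 13.9 and 19.2 CPM against 8.69, 8.41, 12.0 and 9.44 CPM with a log2 fold change of 1.37 (edgeR, SE 0.33, adjusted p = 0.0132). Meis1 was at 329, 326, 312 and 259 CPM against 350.0, 298, 334 and 334 CPM (edgeR adjusted p = 0.885). The 4 falls became 2 without RLT Vav Txp library 3 and 2 without library 4. In E10.5-induced ME at P28, Hoxa9 was at 184, 166, 168 and 195 CPM and Hoxa10 at 141, 138, 122 and 121 CPM, where Hoxa10 was at 50.5, 57.5, 60.9 and 65.1 CPM in RLT Vav Txp and 71.3, 82.7, 68.1 and 83.4 CPM in WT. RLT Vav Txp against that group gave a log2 fold change of -1.23 (edgeR, SE 0.17, adjusted p = 4.27e-05) for Hoxa9 and a log2 fold change of -1.16 (edgeR, SE 0.22, adjusted p = 0.000867) for Hoxa10. None of 16 COMPASS and fusion partner genes passed in edgeR against WT (1 had an unadjusted p under 0.05, and DESeq2, limma and edgeR in the 2 groups or the 16 P28 libraries called 0). Fits that left out 1 library ended the edgeR call of Hoxa9 (without WT library 4 or RLT Vav Txp library 4, adjusted p up to 0.0625), Hoxa7 (without WT library 3, adjusted p = 0.0578), Mef2c (without RLT Vav Txp library 3 or 4, adjusted p up to 0.0588), Runx2 (without RLT Vav Txp library 3, adjusted p = 0.0746) and Pbx3 (without WT library 2 or RLT Vav Txp library 1 or 2, adjusted p up to 0.0556).

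Of 17 fetal and imprinted growth genes tested, 5 fell and none rose, with a median of -1.22. Igf2bp3, an RNA-binding protein of fetal cells, was at 0.555, 0.661, 1.53 and 0.377 CPM against 7.32, 7.45, 12.3 and 7.70 CPM and gave a log2 fold change of -3.51 (edgeR, SE 0.33, adjusted p = 3.07e-07). Its relative Igf2bp2 was at 2.50, 4.50, 4.50 and 9.63 CPM against 18.3, 11.4, 16.8 and 14.2 CPM (log2 fold change -1.52, edgeR adjusted p = 0.0112). Hmga2, a chromatin protein of fetal stem cells, was at 7.40, 16.1, 19.3 and 26.1 CPM against 32.2, 38.6, 51.1 and 38.3 CPM and gave a log2 fold change of -1.22 (edgeR, SE 0.32, adjusted p = 0.0255). In Hmga2 and Igf2bp2, library 1 was the lowest and library 4 the nearest to WT. Dlk1, an imprinted growth regulator, was at 0.584, 0.578, 0.650 and 0.180 CPM against 1.93, 6.25, 7.38 and 2.92 CPM (log2 fold change -3.21, edgeR adjusted p = 3.32e-06). H19 passed with no RLT Vav Txp library above 3 counts, from WT values of 0.0559, 0.523, 1.85 and 0 CPM. The count of 5 was 3 without WT library 3, 2 without RLT Vav Txp library 3 and 3 without a filter on low counts. Removing a single library ended the edgeR call of Igf2bp2 (without RLT Vav Txp library 3, adjusted p = 0.0537), Hmga2 (without WT library 2, 3 or 4 or RLT Vav Txp library 1, 2 or 3, adjusted p up to 0.101) and H19 (without WT library 3 or RLT Vav Txp library 3 or 4, adjusted p up to 0.158). No limma call with quality weights was made for H19 (adjusted p = 0.559).

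Other genes among the 15 falls of the naming rule are described singly. Postn, the matrix protein periostin, was at 4.15, 2.04, 0.882 and 3.16 CPM against 42.3, 29.2, 30.6 and 45.1 CPM and gave a log2 fold change of -3.84 (edgeR, SE 0.34, adjusted p = 1.92e-07). Ddx4, an RNA helicase known from germ cells, was at 23.4, 22.7, 16.8 and 3.47 CPM against 151, 177, 119.9 and 137 CPM and gave a log2 fold change of -3.14 (edgeR, SE 0.35, adjusted p = 5.06e-06). Msrb3, which repairs oxidised methionine, was at 16.5, 9.95, 5.57 and 9.61 CPM against 65.7, 57.1, 86.4 and 80.7 CPM and gave a log2 fold change of -2.80 (edgeR, SE 0.28, adjusted p = 8.87e-07). None of the 3 overlapped between the groups. Mn1, a co-regulator that is itself a leukaemia gene, was at 16.0, 6.88, 4.62 and 1.80 CPM against 55.6, 35.7, 42.1 and 45.2 CPM, and Hnf4a, a nuclear receptor, at 33.7, 7.12, 10.3 and 16.1 CPM against 70.5, 65.8, 79.4 and 81.0 CPM (edgeR adjusted p = 0.000792 and 0.0015). Library 1 was again the nearest to WT in both. Wfdc18, Sema3d, Slc35d3, Emp1, Sstr2 and Sgsm1 fell by 1.99 to 3.26 on the log2 scale. Mir99ahg, a microRNA host transcript, fell by 2.23, but it overlaps 18 other annotated genes and whether the counting used strand is not given in the sources used here, so its reads cannot be told apart from theirs. Among 14 stromal genes, Ndnf fell as well and Cxcl12, the chemokine that holds stem cells in marrow, rose, at 54.1, 32.1, 22.3 and 131 CPM against 2.96, 3.85, 9.16 and 5.69 CPM (edgeR adjusted p = 0.0011 and 0.0224). Library 4 was its highest. Of 10 endothelial genes, Ephb4 and Emcn fell (edgeR adjusted p = 0.00283 and 0.021). On these lists, 11 stromal and 8 endothelial genes were not called, where 2.64% of all genes were called higher and 1.48% lower. Without 1 library, the edgeR call ended for Cxcl12 (without WT library 1, 2 or 4 or RLT Vav Txp library 4, adjusted p up to 0.0982) and Emcn (without WT library 1 or 2 or RLT Vav Txp library 1 or 2, adjusted p up to 0.0763).

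**Figure D5:**
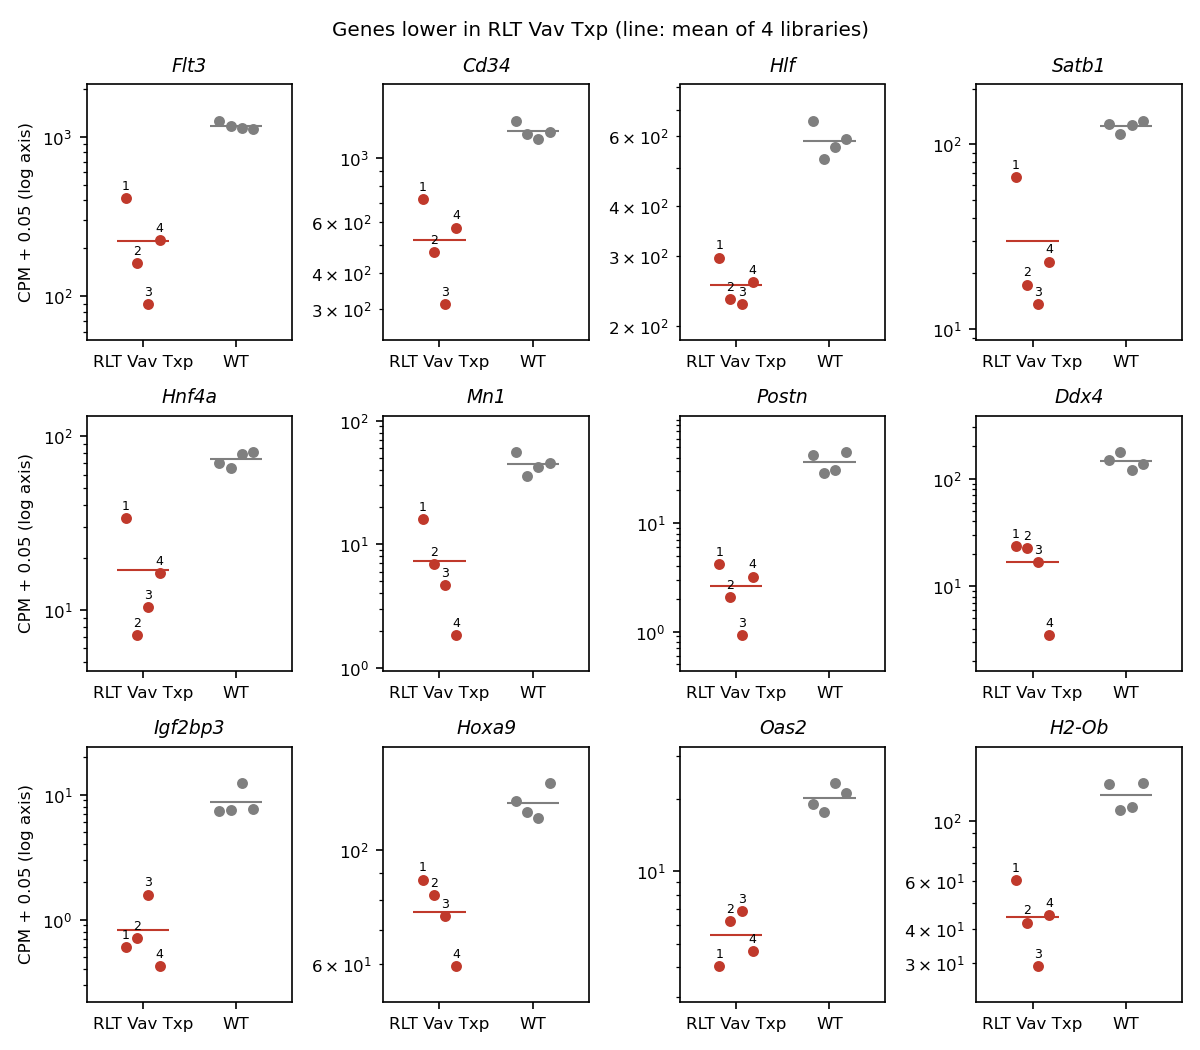
CPM on a log axis, with 0.05 added, for 12 genes that fell, 1 point per library, with RLT Vav Txp libraries numbered. All RLT Vav Txp points lie below all WT points, and library 1 is the nearest to WT for every gene drawn except Igf2bp3 and Oas2.

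Genes of cell division and stress are likewise set beside the 2.64% of all genes called higher and the 1.48% called lower. None of 20 proliferation genes passed in edgeR (3 had an unadjusted p under 0.05, DESeq2, limma and edgeR in the 2 groups called 0, and edgeR in the 16 P28 libraries called 1). Their summed level was 5784, 3861, 3259 and 3788 CPM in RLT Vav Txp, so library 1 stood above the WT range of 3289.6 to 4151 CPM and library 3 just under it. Top2a, which untangles replicated DNA, was also highest in library 1, at 538, 281, 196 and 292 CPM against 299, 296, 350.1 and 291 CPM. Its libraries 2 and 3 lay below every WT library. Cdkn2c, the CDK4 and CDK6 inhibitor p18, rose, at 70.8, 60.7, 72.9 and 54.2 CPM against 16.4, 25.5, 25.2 and 17.6 CPM with a log2 fold change of 1.61 (edgeR, SE 0.32, adjusted p = 0.00287). Of 11 p53 targets, Pmaip1, the death-promoting NOXA, rose and Phlda3, an inhibitor of AKT, fell (log2 fold changes 3.46 and -1.35, edgeR adjusted p = 0.00163 and 0.000324). Of 14 immediate early genes, Fos, Junb and Atf3 rose. Fos was at 5.28, 4.21, 7.40 and 8.66 CPM against 0.419 to 1.55 CPM and gave a log2 fold change of 2.62 (edgeR, SE 0.55, adjusted p = 0.00434). Junb rose by 0.57 (edgeR adjusted p = 0.0298) and Atf3 was at 2.60, 1.14, 13.0 and 3.40 CPM from no more than 3 counts in any WT library (edgeR adjusted p = 0.00474). None of 18 cholesterol synthesis genes passed in edgeR (2 had an unadjusted p under 0.05, DESeq2 called 0, and limma, edgeR in the 2 groups and edgeR in the 16 P28 libraries called 1 each). Among the most abundant called genes that no other list held, Macroh2a1, a histone variant, was lower, at 1430.3, 712, 564 and 819 CPM against 1563, 1526, 1657 and 1355 CPM (log2 fold change -0.79, edgeR adjusted p = 0.0138), and Ldha, the last enzyme of glycolysis, was higher, at 1259, 1528, 1285 and 1048 CPM against 765, 901, 793 and 887 CPM (log2 fold change 0.61, edgeR adjusted p = 0.0185). The library nearest to WT was library 1 for Macroh2a1 and library 4 for Ldha. The edgeR call was lost without 1 library for Junb (without WT library 1, 2 or 3 or RLT Vav Txp library 1 or 2, adjusted p up to 0.134), Macroh2a1 (without WT library 3 or RLT Vav Txp library 2 or 3, adjusted p up to 0.0757) and Ldha (without WT library 1 or 3 or RLT Vav Txp library 2, adjusted p up to 0.0842). Limma with quality weights did not call Fos (adjusted p = 0.105), and edgeR fitted to only the 2 groups did not call Junb (adjusted p = 0.0856) and Macroh2a1 (adjusted p = 0.0582).

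The spread within the RLT Vav Txp group was described through the 10 genes with the largest SD of log2 CPM over its 4 libraries. Several were macrophage genes that different libraries carried. Pla2g2d, a secreted phospholipase, was at 476, 7.98, 21.7 and 25.8 CPM with 0 counts in every WT library, which makes it at least 2361-fold higher against the same floor. Most of that came from library 1. Mmp12, macrophage elastase, was at 2.29, 1.62, 83.7 and 12.8 CPM, also with 0 counts in WT and at least 446-fold higher, mostly from library 3. Atp6v0d2, a proton pump subunit of osteoclasts and lipid-laden macrophages, was at 6.15, 9.34, 56.8 and 49.9 CPM, so that libraries 3 and 4 carried it (edgeR adjusted p = 0.0303). Cd4, the T helper co-receptor, was at 184, 14.4, 66.9 and 31.3 CPM against 13.2, 16.9, 30.2 and 17.4 CPM and did not pass (edgeR adjusted p = 0.0559). Plscr2, a phospholipid scramblase, was at 2.15, 13.0, 14.1 and 32.4 CPM against 0.665 to 1.90 CPM and gave a log2 fold change of 3.78 (edgeR, SE 0.88, adjusted p = 0.0111), with library 1 near WT and library 4 the highest. Zfp951, a zinc finger gene, was at 47.4, 62.3, 11.6 and 0.162 CPM, Rps4l, a copy of a ribosomal protein gene, at 34.2, 41.0, 21.0 and 2.17 CPM and Zfp992 at 13.3, 18.1, 16.5 and 1.81 CPM, each lowest in library 4. Fits that left out 1 library ended the edgeR call of Atp6v0d2 (without WT library 2, 3 or 4 or RLT Vav Txp library 3 or 4, adjusted p up to 0.102) and Plscr2 (without RLT Vav Txp library 4, adjusted p = 0.0669). With limma quality weights, no call was made for Atp6v0d2 (adjusted p = 0.0577), Pla2g2d (adjusted p = 0.0502) and Mmp12 (adjusted p = 0.0978), and edgeR fitted to only the 2 groups did not call Pla2g2d (adjusted p = 0.223) and Mmp12 (adjusted p = 0.214).

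The same libraries were last set against E10.5-induced ME at P28, whose mice share the time of induction. There 1958 genes (8.49% of those tested) were higher and 2163 (9.38%) lower in RLT Vav Txp. Both comparisons use the same 4 RLT Vav Txp libraries. Adgre1 was at 1.41, 0.988, 1.26 and 1.46 CPM in E10.5-induced ME and gave a log2 fold change of 6.52 (edgeR, SE 1.14, adjusted p = 0.00106). C1qa was at 1.22, 1.55, 2.77 and 1.14 CPM there and H2-Eb1 at 6.97, 7.37, 7.21 and 13.1 CPM. All 20 macrophage genes were higher than in that group, with a median of 4.95, and their sum there was 321 to 434 CPM, below the WT range. Flt3, at 1211, 999, 1261 and 1116 CPM, and Cd34, at 1162, 1007, 1160.3 and 1086 CPM, were near their WT levels in E10.5-induced ME, and RLT Vav Txp gave a log2 fold change of -2.37 (edgeR, SE 0.33, adjusted p = 5.15e-05) for Flt3. Il9r, at 34.7, 33.2, 36.9 and 39.7 CPM, was above RLT Vav Txp without passing (log2 fold change -1.49, edgeR adjusted p = 0.0975). Of 20 proliferation genes, 13 were lower than in E10.5-induced ME and none higher. Beside WT, 0 of 20 were called in either direction, but fewer of all genes were called there (2.64% higher and 1.48% lower). The proliferation sum was 7399.9, 7770.2, 6510.5 and 5669.7 CPM in E10.5-induced ME. The count of 4121 fell to 2061 without RLT Vav Txp library 4 and 2197 without its library 3, and was 8053 with limma.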

How the data were processed

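RNA-seq counts of LSK cells from 24 mouse libraries in 6 groups of 4 were used. Whole-number counts per gene were deposited by the authors. Per the submitters' processing notes, STAR 2.7.9a, Subread with featureCounts 2.0.3 and the GRCm38 build were named. The strand setting is not given in the sources used here. Of 55774 entries, 287 repeats of an Ensembl ID, identical in their counts, were dropped. Genes passing filterByExpr with a minimum count of 10 (23059) were scaled by TMM and fitted with edgeR 4.0.16 (R 4.3.3): 1 mean per group over 24 libraries, 18 residual degrees of freedom, a robust quasi-likelihood F-test, and Benjamini-Hochberg adjustment over all genes tested. SEs were derived from the fold change and the F statistic. CPM are TMM-normalised counts, and log2 CPM used a prior count of 2. The 8 libraries compared held 31233688 to 75945220 counts, so 1 CPM was 31.2 reads in the shallowest.

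Named genes were, first, the 15 genes that rose most and the 15 that fell most, of those called whose groups did not overlap and whose log2 CPM averaged 3 or more. Next came the 10 called genes of highest mean CPM and the 10 genes with the largest SD over the RLT Vav Txp libraries. Predicted genes, antigen receptor genes and sex markers were left out of these. Any member of the 34 gene lists could be named too. The comparison and the lists were chosen with earlier results of these data known. Gene positions and overlaps come from GENCODE M21, and promoters from RefSeq on GRCm38.p6.

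Simulated counts for this comparison held 23059 genes. Among those of at least 8 CPM, 35 of 35 changed 8-fold, 30 of 32 changed 4-fold and 15 of 32 changed 2-fold were called. So were 5 of 10545 unchanged genes. Over genes of any level, the calls were 41 of 66 changed 8-fold, 35 of 67 changed 4-fold and 15 of 67 changed 2-fold. Of 22859 unchanged genes, 6 were called. The simulation gave each gene the same spread in every group and drew the libraries independently. Outlying libraries and a spread that differs between groups were not simulated, so these shares need not hold for the real libraries. Alternatives were other scalings, filters and sets of libraries, DESeq2 1.42.0, limma 3.58.1 with quality weights, a stricter threshold, and each library left out in turn. A term for Y-linked genes and the removal of immunoglobulin segments were chosen after seeing the data. Plots used matplotlib 3.10.9. Results on some genes are not reported here.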

Additional observations from a re-analysis of the deposited data

Results flagged for a closer look

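In groups of 4 libraries, a library was singled out where its gap to the nearest of the other 3, divided by the range, was above the critical value of Dixon's test. Chance gives this in about 1 in 20 groups, and here it occurred in 35 of 408 (8.58%), over the genes and list sums described. The values are CPM.

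Among the RLT Vav Txp libraries, library 1 stood apart as the highest for C3 (153), Dntt (310.0), Marco (87.5), Pla2g2d (476), Slc18a1 (5.05) and the early B-lymphoid sum (584). In library 1, Slc18a1 was thus the nearest to WT and Dntt above every WT library. Library 2 was the lowest for Jchain (544) and the highest for Selp (127) and the endothelial sum (406). Library 3 was the highest for Igkv3-4 (964) and Mmp12 (83.7). Library 4 was the highest for Elane (1685), the neutrophil sum (7153) and the eosinophil sum (1738), and the lowest for Dlk1 (0.180) and the interferon response sum (701.6).

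Among the WT libraries, library 3 was the highest for C1qa (11.3), Igf2bp3 (12.3), Irf7 (114), Selp (10.3), Top2a (350.1), Xist (66.4), the monocyte sum (305) and the interferon response sum (1398). Library 1 was the highest for Atf3 (0.0559), Ccr2 (5.09) and Slc35d3 (24.8), and the lowest for Ciita (0.754). Library 2 was the lowest for Clec7a (0), Irf8 (17.7), the blood stem cell sum (4758) and the progenitor cytokine receptor sum (2719), and the highest for Igha (0.677). Library 4 was the highest for Fcer1a (0.232) and Marco (0.185), the other 3 WT libraries having no count of Marco. RLT Vav Txp and WT did not overlap for C1qa, Ccr2, Selp, Igf2bp3 or Irf7.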

How the results depend on the processing

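No paired analysis was possible because the labels link no RLT Vav Txp library to a WT library. Against WT, 950 genes were called. DESeq2 called 1644, the 16 P28 libraries alone 2233, and an adjusted p under 0.01 left 453, while leaving out 1 library gave 635 (without WT library 2) to 859 (without RLT Vav Txp library 1). Against E10.5-induced ME, 4121 were called, and limma called 8053, the 16 P28 libraries 7071 and the stricter threshold 1640. Leaving out 1 library there gave 2061 to 5210 (without RLT Vav Txp libraries 4 and 1). Without its libraries 2 and 3 it gave 2682 and 2197, and without E10.5-induced ME libraries 1, 2 and 3 it gave 2609, 2553 and 2483. The other scalings, filters and sets of libraries stayed within 1.5 times of both counts.

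Of 146 named genes called against WT, 91 were called under all alternatives run and 55 lost the call in at least 1 of them, none with a change of sign. Of 25 not called, 12 were called under at least 1. Besides the losses given with each gene, no filter on low counts ended 15 calls (Atp6v0d2, Blnk, C3ar1, Cd14, Cxcl12, H19, Hmga2, Ifit1, Il9r, Irf7, Junb, Marco, Notch1, Vsig4 and Vwf). Summing the libraries that share the number 378 ended 8 (Cd14, Cxcl10, Emcn, Gata2, Hmga2, Ifit1, Junb and Pbx3), the Y-linked term 7 (Cd14, Cxcl10, Gata2, Junb, Marco, Pparg and Vsig4) and plain library totals 3 (Cxcl10, Gata2 and Junb). The single V gene Igkv3-4 was not called by limma, with the 2 groups alone or with the 16 P28 libraries, which also ended the call of Marco, and Igkv12-44 was not called with the 2 groups alone. Among list counts, edgeR in the 2 groups called 8 monocyte rises in place of 5 and 4 stem cell falls in place of 2. In the 16 P28 libraries it called 4 stem cell rises and 4 falls in place of 2 each, and 4 endothelial falls in place of 2. DESeq2 called 5 early B-lymphoid rises in place of 3. The cause of these differences was not tested.

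Signs changed for 5 genes that were not called. Cebpa had a log2 fold change of -0.14 with limma, and -0.018 to 0.50 when 1 library was left out. Procr had -0.062 with plain library totals and -0.054 to 0.17 when 1 library was left out. Rps4l had -0.024 with the 378 libraries summed, -0.10 to 0.63 when 1 library was left out, and -0.071 with the Y-linked term. Top2a had -0.040 with plain library totals, -0.16 with limma, -0.056 with the 378 libraries summed and -0.27 to 0.27 when 1 library was left out. Zfp951 had -0.55 with limma, -0.30 with the 378 libraries summed, -0.49 with the Y-linked term, and -0.46 to 0.55 when 1 library was left out. Depth limits genes of low counts, since 1 CPM was 31.2 reads in the shallowest library.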
